A study of Gallus gallus with 4 samples.

Results

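Solute carriers are membrane proteins that move sugars, amino acids, ions, metals, vitamins and neurotransmitters across the plasma membrane, the mitochondrial inner membrane and the membranes of vesicles and the Golgi. In the retina they feed photoreceptors and neurons with glucose and lactate, clear and refill transmitters, and set pH and ion balance. The genes described here have a symbol made of SLC, a family number, a letter and a member number. They were named on the array through RefSeq transcripts, and SLC1A3, SLC24A1, SLC24A2 and SLC45A2 were left out. Of 84 such genes with a named probe, 79 in 32 families had a probe that stood well above background on the 2 arrays of DMSO or on the 2 of DAPT, and these 79 are the members, among 32292 features tested in all. The 5 genes below that filter were SLC15A1, SLC35D2, SLC6A2, SLC7A2 and SLC9A3. Each member stands for its probe with the highest mean signal.

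Neural retina of chicken embryos at embryonic day 8 (stage 33) was dissociated and cultured in medium with fetal bovine serum. From day 2 to day 12 the cultures received 10 µM DAPT, an inhibitor of the γ-secretase that releases the active part of the Notch receptor, or the same volume of the solvent, DMSO, with the medium changed every 2 days. Total RNA of day 12 was measured on 1-colour arrays, 2 arrays with DAPT and 2 with DMSO. The labels give neither a strain nor the sex of the embryos, and do not tell whether replicate samples stem from different embryos or platings, so p-values rest on the spread between these samples alone, and that spread may be technical.

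Between 85.7% and 89.3% of the 43803 spots per array were well above background, and no spot was saturated. Across features, which are no independent replicates, the DMSO pair of arrays correlated at 0.994 and the DAPT pair at 0.996. Per the file headers, 1 slide held the replicate 1 arrays of both groups and a second slide those of replicate 2. Marker genes showed that the cultures differed in more than transporters. Of 15 measured fibroblast markers 14 fell, and their summed linear signal, in units of each array's 75th percentile, was 419.8 and 529 in DMSO against 95 and 98.2 in DAPT. Of 16 lens markers 14 rose, with sums of 18.2 and 14.3 in DMSO against 648 and 686 in DAPT. Of 12 photoreceptor markers 11 fell (sums 38.9 and 34.3 against 14.6 and 16.7). Of 10 neuron markers 6 fell and 3 rose (78.8 and 64.7 against 38.2 and 37.7). Of 6 pigment epithelium markers 5 rose (0.274 and 0.169 against 1.22 and 1.24), and of 7 Müller glia markers 3 rose and 2 fell (228 and 213 against 311 and 328). A sum follows its brightest probes, and that of Müller glia is mostly VIM, which did not pass (log2 difference 0.37). On the log2 scale RLBP1, CLU and CA2 rose by 1.91, 1.41 and 1.20, while AQP4 and SOX9 fell by 4.48 and 1.60. Each measured marker was well above background on at least 1 array of each group. Markers without a named probe past the filter are not counted in this. Some lens and pigment markers were dim in DMSO. In log2 units relative to the array's 75th percentile, GJA3 read -6.89 and -7.59 there, and TYR -7.27 and -7.94. AQP4, which rests on a single probe, was as dim in DAPT (-7.93 and -8.26), so the size of its fall is not settled. In such bulk samples, fewer cells of a type and less RNA per cell cannot be told apart, and the part of these shifts in the transporter results below was not tested.

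Setting DAPT against DMSO asks which transporters differ in retinal cultures kept for 10 days in the inhibitor. The largest measured rise was in SLC7A5, a transporter of large neutral amino acids. Falls that held with each array left out included those of the acetylcholine transporter SLC18A3, which rests on a single probe, and the iron exporter SLC40A1. That of SLC37A3, a relative of the glucose-6-phosphate transporter, held too. The monocarboxylate transporters SLC16A7 and SLC16A8 fell as well, but both were dim, their differences shrank under another background correction, and SLC16A8 did not pass with the mean of its probes. Values below are the log2 of the processed signal after subtracting the 75th percentile of its array, so 0 is the level of a probe at that percentile, and differences are DAPT minus DMSO on that log2 scale. Levels of different probes are not comparable. The test is limma's moderated test, p-values were adjusted over the 32292 features by Benjamini-Hochberg, and a gene rose or fell where its adjusted p was below 0.05. Of the 79 members 11 rose and 14 fell (13.9% and 17.7%), beside 12.4% and 13.1% of all features tested, so the shares lay near the background. Of the features 25.5% passed in either direction, and of the 5111 measured genes with a symbol 28.3% did (14.4% higher, 13.9% lower). With a change of at least 2-fold as well, 5 rose and 7 fell (6.33% and 8.86%), beside 4.87% and 7.1% of all features and 6.22% and 8.14% of genes with a symbol. The 11 and the 5 both include SLC17A6, which is a member only through its DAPT arrays. No fold can be given for it because it was not well above background in DMSO, so its place among the 5 is not settled. The 14 and the 7 both include SLC26A3, which is a member only through its DMSO arrays. Only 1 of its 2 DAPT arrays was well above background, and SLC26A3 did not pass after normexp background correction (adjusted p = 0.0654). The median difference of the members was 0.043, and that of all features 0.062. DMSO and DAPT arrays did not overlap for 68.4% of members and for 65.6% of all features.

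**Figure D1:**
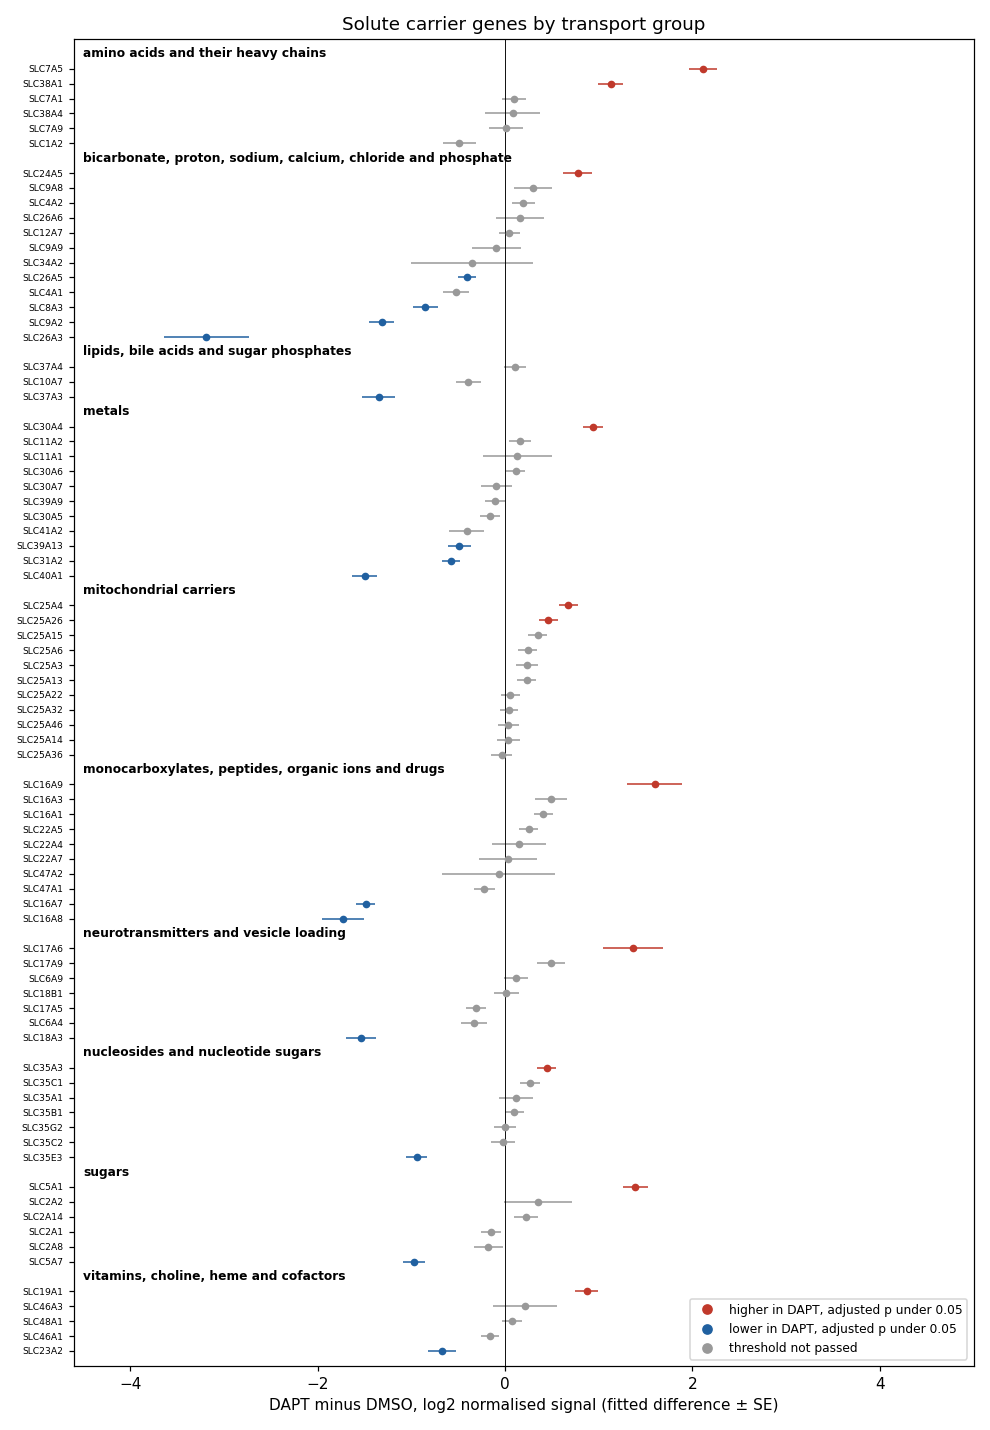
Fitted difference between DAPT and DMSO (log2 normalised signal, point and SE, 2 arrays per group) for 78 of the 79 solute carrier genes, grouped by what their family carries. Red points passed the threshold upwards (11 genes, among them SLC17A6, which was not well above background in DMSO). Blue points passed it downwards (14 genes), and the 53 grey points lie between -0.52 and 0.49.

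With the slide as a block, 15 members rose and 20 fell, beside 21.2% and 18.6% of all features, and none of the 25 calls made without the block was lost. For all 25 the DAPT and DMSO arrays did not overlap, as for 65.6% of all features. The difference therefore had to have the same sign within both slides, which is no separate evidence. Leaving out 1 array leaves a group with a lone sample, which is then assumed to vary like the others. No share of all features is given for these settings. The counts therefore cannot tell whether transporters lost calls more often than other features did. Without DAPT replicate 1 the counts were 4 higher and 7 lower, without DAPT replicate 2 they were 3 and 7, and without DMSO replicate 1 or 2 they were 8 and 11 or 8 and 10. The 10 genes that passed with every array left out in turn were SLC7A5, SLC38A1 and SLC5A1, which rose, and SLC16A7, SLC16A8, SLC18A3, SLC40A1, SLC37A3, SLC9A2 and SLC26A3, which fell. With 2 arrays per group, the smallest two-sided p of an exact permutation test is 0.333.

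**Figure D2:**
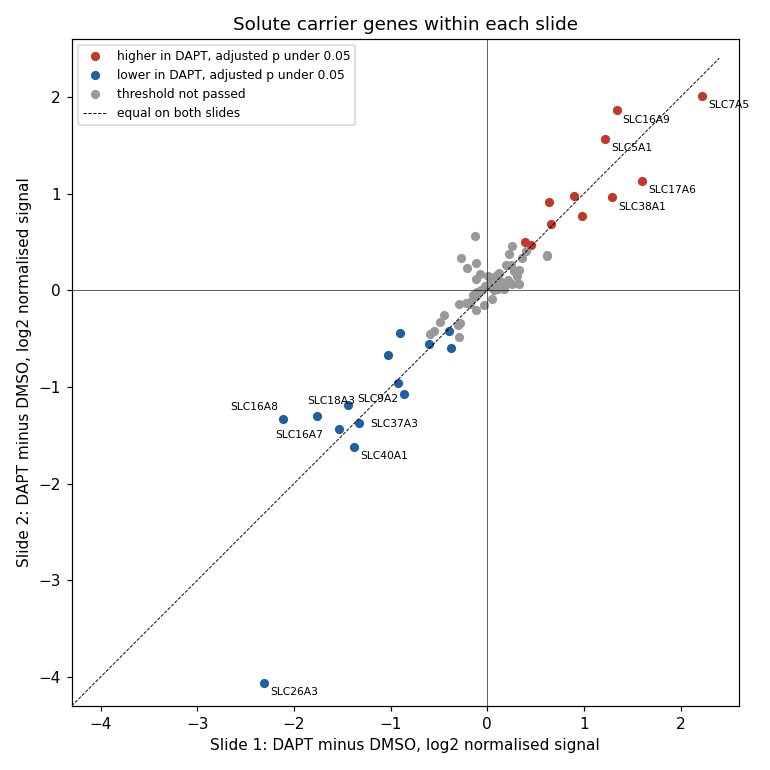
Difference between DAPT and DMSO within slide 1 (horizontal axis, replicate 1 arrays) and within slide 2 (vertical axis, replicate 2 arrays), both in log2 normalised signal, for 78 members. All 25 red and blue genes have the same sign on both axes, as any gene must whose DAPT and DMSO arrays do not overlap. SLC26A3 lies farthest from the line of equal differences (-2.31 on slide 1, -4.07 on slide 2).

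None of the 4 facilitative glucose transporters (SLC2 family) passed the test. SLC2A1 (GLUT1), the main glucose transporter of most cells and of the blood-retina barrier, read 1.79 and 1.69 in DMSO and 1.61 and 1.56 in DAPT. Its difference was -0.15, with a 95% interval from -0.43 to 0.13. SLC2A14, the reference symbol that holds the neuronal glucose transporter name SLC2A3 as an older symbol, was at 0.23 (interval -0.12 to 0.57), and SLC2A2 and SLC2A8 did not pass either. By comparison, SLC5A1, a transporter that couples glucose to sodium, read -4.83 and -5.07 in DMSO and -3.61 and -3.50 in DAPT. Both DAPT arrays lay above both DMSO arrays, a 2.62-fold rise (1.39 ± 0.13, log2 difference ± SE, n = 2 arrays per group as throughout; adjusted p = 0.00485 in limma). The differences of its 3 probes varied, from 0.31 to 1.39, and after normexp background correction the difference was 0.85.

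In the amino acid group 2 of 6 members rose and 0 fell (33.3% and 0%, beside 12.4% and 13.1% of all features). SLC7A5 (LAT1), the light chain of the exchanger for leucine and other large neutral amino acids, read 0.31 and 0.20 in DMSO, against 2.53 and 2.21 in DAPT. The groups were well apart, and the rise was 4.33-fold (2.12 ± 0.15, adjusted p = 0.00268), with 2.22 on slide 1 and 2.01 on slide 2. The differences of its 4 probes lay between 1.33 and 2.12. SLC38A1, a sodium-coupled transporter of glutamine and small neutral amino acids, read -0.63 and -0.39 in DMSO and 0.66 and 0.57 in DAPT, a 2.18-fold rise (adjusted p = 0.00765). Both of its probes were higher in DAPT. SLC1A2 (GLT1 in mammals), a glutamate transporter, read -3.23 and -3.59 in DMSO and -3.78 and -4.01 in DAPT. It did not pass without the block (-0.49 ± 0.18, adjusted p = 0.119) and did with it (adjusted p = 0.0199), but its other probe was at 0.44, and the mean of both probes was at -0.025. The cationic amino acid transporter SLC7A1, as well as SLC7A9 and SLC38A4, lay between 0.0097 and 0.093.

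Monocarboxylate transporters that carry lactate and pyruvate with a proton belong to the SLC16 family. Of its 5 members 2 fell, 1 rose and 2 did not pass (40% lower and 20% higher, beside 13.1% and 12.4% of all features). The rise was in SLC16A9, described below as a carnitine transporter. SLC16A7 (MCT2), a high-affinity form of neurons in mammals, read -4.46 and -4.53 in DMSO, against -5.99 and -5.97 in DAPT. The 2 replicates of each group nearly coincided, and the fall was 2.80-fold (-1.49 ± 0.10, adjusted p = 0.00246, the lowest among the members). It rests on a single probe. SLC16A8 (MCT3), the form of retinal pigment epithelium, read -3.58 and -3.82 in DMSO and -5.70 and -5.16 in DAPT, a 3.31-fold fall (adjusted p = 0.00991). While 5 of 6 pigment epithelium markers rose, a link to SLC16A8 was not tested. The other probe of SLC16A8 was at -0.48, and with the mean of both probes the difference was -1.10 (adjusted p = 0.0875). Both genes were dim, and normexp correction brought SLC16A7 to -0.50 and SLC16A8 to -0.81, each still past the threshold (adjusted p = 0.0123 and 0.0145).

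SLC16A9, a carnitine transporter in humans, read -2.45 and -3.23 in DMSO and -1.11 and -1.37 in DAPT. It rose 3.03-fold (1.60 ± 0.29, adjusted p = 0.0236), but missed the threshold without DAPT replicate 1 (adjusted p = 0.0810) and without DAPT replicate 2 (adjusted p = 0.0569). The lactate transporters SLC16A1 (MCT1) and SLC16A3 (MCT4, the form of glycolytic cells) had higher values in DAPT on both slides. SLC16A1 read 3.87 and 3.81 in DMSO and 4.27 and 4.21 in DAPT (0.41 ± 0.10, adjusted p = 0.0525, and 0.0253 with the slide as a block). It also passed under normexp, median scaling, the stricter filter and the trended prior (adjusted p = 0.0409, 0.0418, 0.0479 and 0.0166). It did not pass with quantile normalization, the authors' values, the mean of its 4 probes or no filter (adjusted p = 0.138, 0.0852, 0.0930 and 0.0803), nor with any array left out (adjusted p from 0.0999 to 0.319). SLC16A3 read 2.42 and 2.81 in DMSO and 3.04 and 3.18 in DAPT, a difference of 0.49 (interval 0.027 to 0.96, adjusted p = 0.114, and 0.0290 with the block), and at 0.29 without DMSO replicate 1. In the group of monocarboxylate, organic ion and drug carriers as a whole, 1 of 10 members rose and 2 fell (10% and 20%, beside 12.4% and 13.1% of all features). The other 7 did not pass, all 7 between -0.22 and 0.49.

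Among carriers that clear transmitters or load them into vesicles, 1 of 7 members was called higher and 1 fell (14.3% each, beside 12.4% and 13.1% of all features). SLC18A3, which loads acetylcholine into synaptic vesicles, read -1.53 and -1.62 in DMSO and -3.29 and -2.92 in DAPT, a 2.89-fold fall (-1.53 ± 0.16, adjusted p = 0.00610). SLC5A7, which takes choline back up for acetylcholine synthesis and is grouped with the sugar carriers by its family number alone, read -3.04 and -2.86 in DMSO and -3.91 and -3.93 in DAPT. It fell 1.96-fold (adjusted p = 0.00826), but its adjusted p was 0.0552 without DAPT replicate 1 and 0.0596 without DAPT replicate 2. Both carriers of the cholinergic synapse were lower on both DAPT arrays than on either DMSO array. DMSO and DAPT arrays did not overlap for 65.6% of all features either, so this is common. Each of the 2 carriers rests on a single probe, and under normexp SLC18A3 was at -1.30 and SLC5A7 at -0.65. Of 10 neuron markers 6 fell, 3 rose (PROX1, DCX and NEFM) and 1 did not pass, and a link was not tested. SLC6A9 (GLYT1), a glycine transporter of glia and amacrine cells, read 3.35 and 3.23 in DMSO and 3.51 and 3.30 in DAPT, and the groups overlapped (0.12, interval -0.23 to 0.46). SLC17A6 (VGLUT2), which loads glutamate into vesicles, was not well above background on either DMSO array and read -8.21 and -7.86 in DAPT. Although its fitted difference passed (adjusted p = 0.0425), its DAPT signal lay below the dimmest probe level counted as well above background in DMSO, so no fold is given. It missed the threshold after normexp correction (0.12, adjusted p = 0.407), with quantile normalization (adjusted p = 0.0907), with the trended prior (adjusted p = 0.0669), without DMSO replicate 1 (adjusted p = 0.0563), without DAPT replicate 1 (adjusted p = 0.0790) and without DAPT replicate 2 (adjusted p = 0.141).

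**Figure D3:**
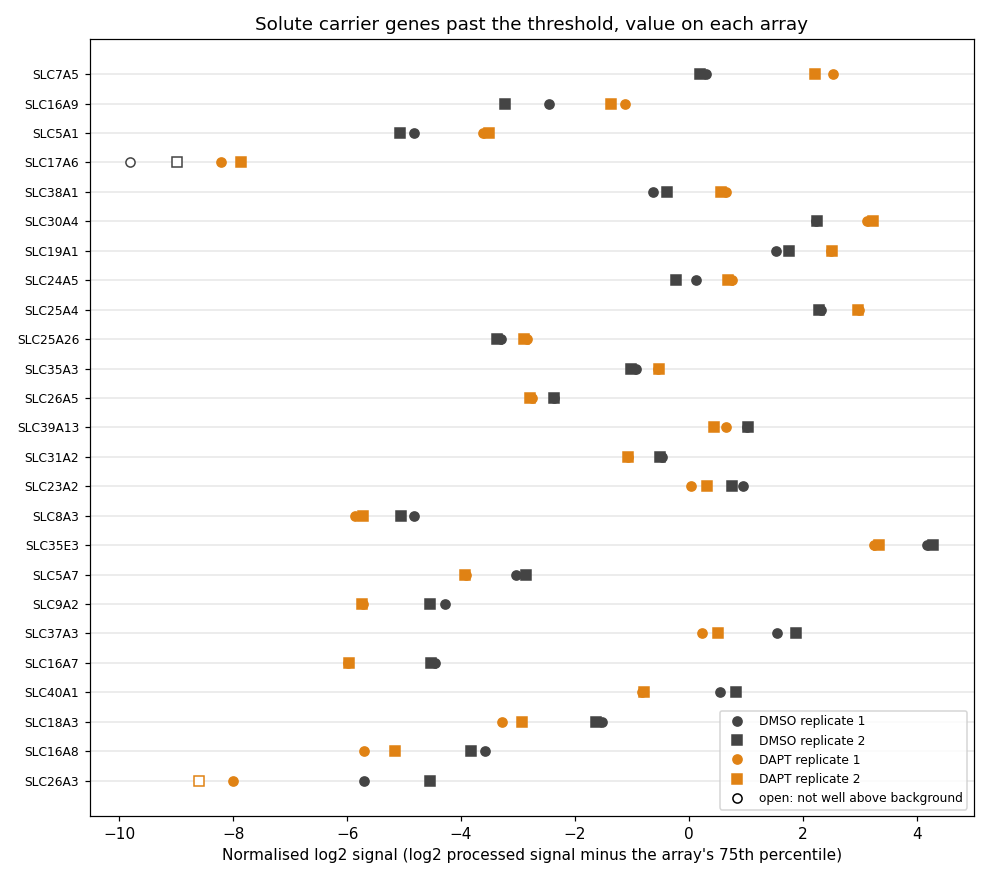
Normalised log2 signal on each of the 4 arrays for the 25 members past the threshold, with DMSO in grey, DAPT in orange, circles for replicate 1 and squares for replicate 2. Open symbols mark arrays where the probe was not well above background, which were both DMSO arrays for SLC17A6 and 1 DAPT array for SLC26A3; levels of different genes are not comparable.

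Of 13 members carrying bicarbonate, protons, sodium, calcium, chloride or phosphate, 4 fell and 1 rose (30.8% and 7.69%, beside 13.1% and 12.4% of all features). The group's median was -0.35, beside 0.062 over all features. That median is the value of SLC34A2, which did not pass (-0.35 ± 0.65, adjusted p = 0.746) and was at -0.16 under normexp. Only 1 of the 4 falls passed after normexp correction. That was SLC9A2 (NHE2), a sodium-proton exchanger of epithelia, which read -4.29 and -4.55 in DMSO and -5.73 and -5.74 in DAPT. Its difference was -1.32 ± 0.13, a 2.49-fold fall (adjusted p = 0.00536), and -0.61 under normexp. SLC26A3, a chloride-bicarbonate exchanger of the gut in mammals, read -5.70 and -4.54 in DMSO and -8.01 and -8.61 in DAPT, where only 1 of 2 arrays was well above background. From the processed signal its fitted difference was -3.19 ± 0.45 (adjusted p = 0.0124), the lowest of the members. Under normexp it was at -0.72 and did not pass (adjusted p = 0.0654), and SLC40A1 (-1.41), SLC18A3 (-1.30), SLC37A3 (-1.29), SLC35E3 (-0.95) and SLC16A8 (-0.81) were lower.

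Outside the rule for named genes, 9 further members past the threshold are named because of their values, among them 3 of the ion group. SLC24A5, a potassium-dependent sodium-calcium exchanger needed for melanin formation in melanosomes, rose 1.71-fold (adjusted p = 0.0314). Of 6 pigment epithelium markers 5 rose as well, and a link to SLC24A5 was not tested. SLC24A5 read 0.13 and -0.23 in DMSO and 0.76 and 0.68 in DAPT, and its other probe was at 1.69. The mean of its probes was at 1.23 (adjusted p = 0.00845). SLC8A3 (NCX3), a sodium-calcium exchanger of muscle and neurons, was at -0.85 ± 0.13 (adjusted p = 0.0155), but at -0.35 under normexp (adjusted p = 0.0510). SLC26A5, known as prestin in the hair cells of the inner ear, was at -0.41 ± 0.098 (adjusted p = 0.0478). With 1 array left out, the SLC26A5 call was lost each time and the other 2 in part, although the differences kept their sign. They stayed between 0.59 and 0.96 for SLC24A5, -0.96 and -0.74 for SLC8A3, and -0.42 and -0.39 for SLC26A5. The adjusted p without DAPT replicate 1 and without DAPT replicate 2 was 0.147 and 0.121 for SLC24A5, 0.0990 and 0.0690 for SLC8A3, and 0.272 and 0.302 for SLC26A5. Without DMSO replicate 2, SLC24A5 was at 0.0591 and SLC26A5 at 0.114, and without DMSO replicate 1 SLC26A5 was at 0.111. SLC26A5 also missed under normexp, quantile normalization, median scaling and no filter (adjusted p = 0.0570, 0.0693, 0.0763 and 0.0742), and SLC24A5 under no filter (adjusted p = 0.0515).

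Of 11 metal carriers 3 fell and 1 rose (27.3% and 9.09%, beside 13.1% and 12.4% of all features). SLC40A1 (ferroportin), the exporter of iron from cells, read 0.55 and 0.83 in DMSO, against -0.82 and -0.80 in DAPT. The fall was 2.83-fold (-1.50 ± 0.13, adjusted p = 0.00433), and its 4 probes ranged from -1.66 to -1.50. The metal importers SLC11A1 and SLC11A2 were at 0.13 and 0.16 and did not pass. SLC30A4, which moves zinc out of the cytosol, read 2.22 and 2.25 in DMSO and 3.13 and 3.22 in DAPT, a 1.92-fold rise (0.94 ± 0.10, adjusted p = 0.00678). All 5 of its probes were higher in DAPT, and without DAPT replicate 2 its adjusted p was 0.0604. The other 3 zinc carriers of its family, SLC30A5, SLC30A6 and SLC30A7, lay between -0.16 and 0.11 and did not pass. SLC31A2, of the copper transporter family, fell by 0.58 (adjusted p = 0.0197). SLC39A13, a zinc transporter of the Golgi and vesicles that connective tissue needs, fell by 0.49 (adjusted p = 0.0497). Of 15 fibroblast markers 14 fell as well, and a link to either gene was not tested. Without DMSO replicate 1, DMSO replicate 2, DAPT replicate 1 and DAPT replicate 2 in turn, the adjusted p was 0.0600, 0.0543, 0.154 and 0.155 for SLC31A2 and 0.117, 0.126, 0.148 and 0.312 for SLC39A13. SLC39A13 also missed with median scaling and with no filter (adjusted p = 0.0603 and 0.0765).

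Carriers of the mitochondrial inner membrane (SLC25 family) held small differences. Of 11 members 2 rose and 0 fell (18.2% and 0%, beside 12.4% and 13.1% of all features), and the other 9 lay between -0.035 and 0.35. SLC25A4, the ADP/ATP carrier of muscle and heart in mammals, read 2.33 and 2.28 in DMSO and 2.99 and 2.97 in DAPT. It rose 1.60-fold (0.68 ± 0.099, adjusted p = 0.0136), and its 3 probes lay between 0.61 and 0.68. SLC25A6, another ADP/ATP carrier, was at 0.25 (interval -0.026 to 0.52) and did not pass. SLC25A26, which brings the methyl donor S-adenosylmethionine into mitochondria, rose 1.38-fold (adjusted p = 0.0385). SLC25A4 missed the threshold without DAPT replicate 1 or 2 (adjusted p = 0.115 and 0.110). SLC25A26 missed it without each array in turn (0.0776 and 0.107 for DMSO replicates 1 and 2, 0.259 and 0.218 for DAPT), under normexp (0.31, adjusted p = 0.0596), with the authors' values (adjusted p = 0.0610) and with no filter (adjusted p = 0.0617).

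Among nucleotide-sugar carriers (SLC35 family), which supply the Golgi with building blocks of glycans, 1 of 7 rose and 1 fell (14.3% each, beside 12.4% and 13.1% of all features). SLC35E3, a member with no well-known substrate, read 4.18 and 4.29 in DMSO and 3.26 and 3.33 in DAPT. It fell 1.92-fold (-0.94 ± 0.11, adjusted p = 0.00736), and its 4 probes ranged from -1.01 to -0.86. SLC35A3, a carrier of UDP-N-acetylglucosamine, rose 1.36-fold (0.44 ± 0.10, adjusted p = 0.0414). Its adjusted p was 0.0757 with the mean of its probes, 0.0643 with the authors' values and 0.0656 with no filter. The adjusted p without DAPT replicate 1 and 2 was 0.0597 and 0.0506 for SLC35E3, and 0.240 and 0.267 for SLC35A3. Without DMSO replicate 1 and 2, SLC35A3 was at 0.0805 and 0.113. In the lipid, bile acid and sugar phosphate group, SLC37A3, a relative of the glucose-6-phosphate transporter, read 1.55 and 1.88 in DMSO and 0.22 and 0.51 in DAPT. It fell 2.54-fold (-1.35 ± 0.18, adjusted p = 0.0103), whereas SLC37A4, the glucose-6-phosphate transporter itself, was at 0.11 and did not pass.

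Vitamin and cofactor carriers held 1 rise and 1 fall among 5 (20% each, beside 12.4% and 13.1% of all features). SLC19A1, the reduced folate carrier, read 1.53 and 1.75 in DMSO and 2.50 and 2.52 in DAPT, with both DAPT arrays above both DMSO arrays. It rose 1.83-fold (0.87 ± 0.12, adjusted p = 0.0125), all 5 of its probes were higher, and its adjusted p was 0.0760 and 0.0813 without DAPT replicate 1 and 2. SLC23A2, a sodium-coupled vitamin C transporter, read 0.94 and 0.76 in DMSO and 0.040 and 0.32 in DAPT, a 1.59-fold fall (adjusted p = 0.0380). Without DMSO replicate 1, DMSO replicate 2, DAPT replicate 1 and DAPT replicate 2 in turn, its adjusted p was 0.112, 0.0689, 0.201 and 0.0863, and with no filter it was 0.0607. The folate carrier SLC46A1, its relative SLC46A3 and the heme carrier SLC48A1 did not pass and lay between -0.16 and 0.21.

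**Figure D4:**
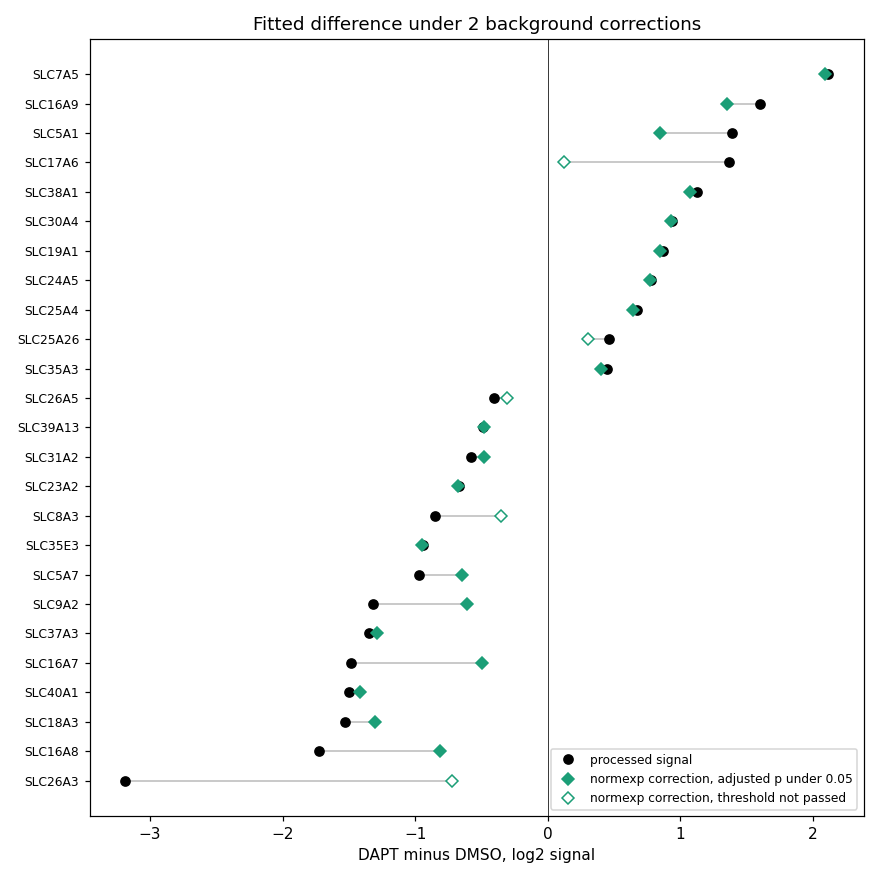
Fitted difference between DAPT and DMSO (log2 scale) of the 25 members past the threshold from the processed signal (black circles) and after normexp background correction (green diamonds, open where the adjusted p was not below 0.05). Of the 25 calls 20 were kept, and the open diamonds are SLC26A3, SLC8A3, SLC26A5, SLC25A26 and SLC17A6.

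Genes that work beside these carriers were counted from a list of 44 pumps, organic anion carriers, ABC transporters, carbonic anhydrases, transporter chaperones and related enzymes. Of the 25 that were measured, 5 rose and 3 fell (20% and 12%, beside 12.4% and 13.1% of all features), with a median of 0.081. SLCO4A1, an organic anion carrier, rose by 1.26 ± 0.11, and CA2, a carbonic anhydrase of Müller glia, by 1.20 ± 0.20. ATP1B1, a subunit of the sodium pump, rose by 0.95 ± 0.11, LDHA, which turns pyruvate into lactate, by 0.95 ± 0.12, and ABCC4, an exporter of organic anions, by 0.84 ± 0.14. The 4 probes of LDHA varied, from 0.33 to 1.63. The cholesterol exporter ABCA1 was at -1.08 ± 0.11, ASNS, which makes asparagine and is a common marker of amino acid shortage, at -0.99 ± 0.19, and ATP2B1, a calcium pump, at -0.57 ± 0.10. BSG (basigin), the chaperone that takes SLC16A1 and SLC16A3 to the membrane, was at 0.30 ± 0.11 and did not pass (adjusted p = 0.118). ATF4, a transcription factor that in mammals raises amino acid transporter genes such as SLC7A5, was at -0.31 ± 0.099 and did not pass (adjusted p = 0.0898). Whether ATF4 or amino acid shortage bears on the SLC7A5 rise was not tested.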

How the data were processed

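Per the labels' protocols, Cy3-labelled RNA made from 100 ng of total RNA was hybridised. Per the file headers, the deposited spot intensity was extracted by Agilent Feature Extraction 11.5.1.1, which subtracts background, and the authors' second deposited table gives this intensity multiplied by a constant for each array (DMSO 1.41 and 1.50, DAPT 1.46 and 1.51) on a linear, uncentred scale. What set the constants stays unknown. Column medians were 380.4, 359, 350 and 336. Control spots and outlier spots (4 to 8 per array) were left out and the spots of a probe averaged. Of 43603 probes, 11931 were named by RefSeq accession through a table of assembly GRCg7b. The array annotation refers to an older build, so no coordinates are given. The log2 of the processed signal, scaled to the 75th percentile of its array, was tested with limma 3.58.1 in R 4.3.3 (prior degrees of freedom 2.39), after a filter for probes well above background on both arrays of 1 group. Intervals are 95% intervals of that model. The fit was also run on simulated arrays with the same noise level for all probes and no shared slide deviation. The real arrays differ in both, so that run does not test the fit under their conditions.

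Of 47 members with more than 1 kept probe, 39 had 1 sign. The labels state no pairing, and the deviations of the arrays on 1 slide from their group means correlated at 0.583, so slide and replicate number form 1 block, run as an alternative. Members, lists and tests were chosen with earlier results of these data known. Genes were named where they passed with at least a 2-fold change and no overlap (12 genes), where they stood in a list of 36 retinal transporters (17 measured), or where they had the lowest adjusted p of a transport group that held none of the 12. The 9 others past the threshold, and members given only by small or unpassed values, were named after their values were seen. Alternatives were normexp (offset 50, on median signals), quantile and median scaling, the authors' values, 2 other filters, the slide block, a trended robust prior, averaging over the probes of a gene, and leaving out each array in turn. The number of arrays limits the precision. The values of 1 member are not reported here, and it is left out of the plots.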

Additional observations from a re-analysis of the deposited data

How the results depend on the processing

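Counts of members higher and lower in DAPT (11 and 14) stayed within 1.5 times under normexp, quantile and median scaling, the authors' values, the stricter filter, the mean of probes, the trended prior and the slide block. With no filter on dim probes 7 were higher. With at least a 2-fold change as well 5 were higher and 7 lower, since that threshold is stricter; the 5 include SLC17A6, which has no usable fold. With each array left out, 3 to 8 were higher and 7 to 11 lower. No share of all features is given beside the counts with an array left out. The members' median difference (0.043) was 0.086 with median scaling, -0.022 with the authors' values, and -0.023 to 0.088 with each array left out, so its sign is not settled. SLC17A6 had the opposite sign with no filter (-0.25), where another probe stood for the gene. With the replicate block 1 of 6 amino acid carriers, 2 of 3 lipid and sugar phosphate carriers and 2 of 7 vesicle and transmitter carriers were lower. So were 5 of 25 in the partner list, beside 18.6% of all features. With the block 3 of 10 monocarboxylate and organic ion carriers and 2 of 7 vesicle and transmitter carriers were higher, beside 21.2% of all features. Without the block 13.1% of all features were lower and 12.4% higher, so the block added calls across all features. Under normexp 1 ion exchanger was lower, and 1 mitochondrial, 2 monocarboxylate and organic ion, and 0 vesicle and transmitter carriers were higher (limma, adjusted p; the 1 higher in the latter group before was SLC17A6). The cause was not tested. The block ended no call and added 10. Among genes named by the rule or past the threshold, SLC17A6 with no filter was the only sign turned by a setting that kept all 4 arrays. Members named only by small or unpassed values could turn. SLC47A2 went from -0.064 to 0.25 with the mean of its probes, and SLC9A9 from -0.091 to 0.029 under normexp. Probes near background limit the size of differences: normexp moved SLC16A7, SLC16A8, SLC9A2, SLC8A3, SLC26A3, SLC5A1, SLC25A26 and SLC17A6 by over 1.5 times.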

Other observations

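Probes of 8 members differed in sign among themselves, and none of the 8 had passed the threshold. Beside SLC1A2, the widest gap in that set was in SLC47A2, an exporter of organic cations, from -0.064 to 0.57. SLC9A9, a sodium-proton exchanger of endosomes, had 1 probe at -0.091 and a dimmer one at -1.97, and with the mean of both it was at -1.03 and passed (adjusted p = 0.0266 in limma), so the choice of probe sets its value and its call. All 16 called members with more than 1 kept probe had probes of 1 sign, and the other 9 calls rest on a single probe each. These 9 are SLC16A7, SLC16A9, SLC17A6, SLC18A3, SLC5A7, SLC9A2, SLC26A3, SLC26A5 and SLC39A13.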
